A study of Mus musculus with 7 samples.

Results

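Of the 35976 gene symbols counted in neurons isolated from the mouse amygdala, 34 encode the presynaptic machinery that docks, primes, fuses and retrieves synaptic vesicles. They were chosen by name, as core members of the family, with earlier results of these data known. The list held 8 genes of SNARE complex assembly, 5 synaptotagmins, 8 proteins of the vesicle membrane, 4 genes of the Rab3 cycle, 7 active zone components and 2 genes of vesicle retrieval. All 34 were measured and all 34 passed the filter on low counts.

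A synaptic vesicle is tethered to the active zone, primed when SNARE proteins on the vesicle and on the plasma membrane begin to zip together, and fused when calcium binds a synaptotagmin. Its membrane is then taken back by endocytosis and refilled with transmitter. In the amygdala this machinery serves both glutamatergic principal neurons and GABAergic neurons, and neurons express much of it from early in their maturation.

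The 7 libraries came from male C57BL/6J mice given adeno-associated virus in the amygdala, with the guide sgRosa as a control (4 libraries) or the guide sgNr2f2 (3 libraries). Nr2f2 encodes the orphan nuclear receptor COUP-TFII. In both groups Cas9 was driven by hSyn, a synapsin promoter active in neurons, and both groups went through tube restraint for 7 days, then fear conditioning on 1 day and extinction training on 3 days. There was thus no unstressed group and no group without Cas9, and the labels give neither the age of the mice nor the number behind a library.

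Total counts ran from 6266897 (sgRosa replicate 4) to 20928677 (sgNr2f2 replicate 3) and were at least 15335076 in the 6 libraries other than sgRosa replicate 4. The targeted gene, Nr2f2 (GRCm38.p6, chr7:70351946-70366746), had 422, 305, 166 and 96 counts in sgRosa and 196, 214 and 191 in sgNr2f2. Its level was 15.1 ± 3.76 CPM (counts set on an equal total per library, after TMM scaling; SD, n = 4) in sgRosa and 11.8 ± 0.224 in sgNr2f2 (SD, n = 3). Its log2 fold change was -0.36 (SE 0.37, edgeR quasi-likelihood adjusted p = 0.905), which is within the spread between libraries. A guide can disrupt a protein without lowering the transcript, and this count does not check that.

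The label of isolated neurons was set beside marker genes before the release genes were read. Values per library are given in the order of replicates 1 to 4 for sgRosa and 1 to 3 for sgNr2f2. Oligodendrocyte markers took 13.6, 29.5, 29.1 and 2.69% of counts in the sgRosa libraries, and 29.8, 17.9 and 32.2% in the sgNr2f2 libraries. The 24 pan-neuronal genes took 0.163, 0.0981, 0.115 and 0.720% and 0.126, 0.106 and 0.109% of counts in the same order. Of 10 markers of glutamatergic or GABAergic neurons, 5 had counts in all 7 libraries and 5 were at 0 in at least 1. The sgRosa replicate 4 library stood apart from the mean of the other sgRosa libraries. Its pan-neuronal share was 5.74 times, its erythroid share 16.6 times and its oligodendrocyte share 0.112 times as large. The summed shares of the 5 glutamatergic and the 5 GABAergic markers were 2.33 and 2.21 times as large in that library. The members' fold changes are therefore given with and without it.

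The summed counts of the 34 release genes, like the pan-neuronal genes, were highest in sgRosa replicate 4. They took 0.263, 0.142, 0.158 and 0.488% of counts in sgRosa and 0.187, 0.138 and 0.155% in sgNr2f2. Replicate 1 of sgRosa came next, and the remaining sgRosa libraries lay among the sgNr2f2 libraries. In bulk libraries the number of neurons, release machinery RNA per neuron and RNA of these genes from other cells cannot be told apart. Set against the pan-neuronal genes of the same library, the release genes had 1.62, 1.45, 1.37 and 0.677 times as many counts in sgRosa and 1.48, 1.30 and 1.42 times as many in sgNr2f2. In that ratio sgRosa replicate 4 was the lowest library, and the groups overlapped. Beside the mean of the other sgRosa libraries, the release genes' share there was 2.60 times as large. That is nearer to the glutamatergic and GABAergic markers (2.33 and 2.21 times) than to the pan-neuronal genes (5.74 times). The ratio thus depends on the list of neuronal genes used.

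**Figure D1:**
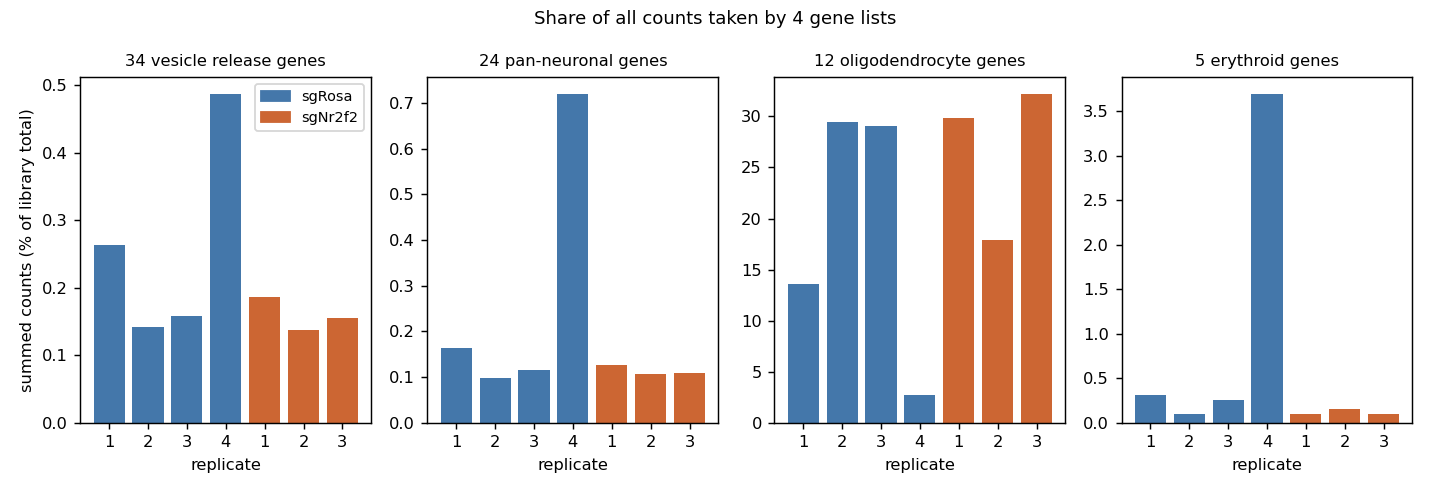
Bars give the summed counts of 4 gene lists as a percentage of each library's total, from 0, by replicate of sgRosa (blue) and sgNr2f2 (orange). The release genes and the pan-neuronal genes were highest in sgRosa replicate 4 (0.488 and 0.720%), where oligodendrocyte genes were lowest (2.69%) and erythroid genes highest (3.70%).

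Promoters of a few members are shown because of the elements that such genes are known for. RefSeq's GRCm38.p6 table held start windows, from 250 bases before to 50 after the start, for 27 of the 34 members. Syn1 is shown as the mouse gene whose human counterpart lends its promoter to hSyn, which drove Cas9 here. Unc13a is shown because its window held both parts of RE1, the element through which REST silences neuronal genes in other cells. A window of Syt1 is shown because it held AGGTCA, the core hexamer that nuclear receptors, COUP-TFII among them, can bind. The other Syt1 window, chr10:109010926-109011225, at the annotated start of the gene's range, held no AGGTCA and is not shown. Capitals mark TTCAGCACC (RE1, left part) and TGACGTCA (cAMP response element) in Syn1. In Unc13a they mark the letters of the RE1 right part (GGACAGCG) and left part, which lie there on the opposite strand, and in Syt1 they mark AGGTCA. Each sequence is written on the gene's strand, which is minus for all of them, at chrX:20920869-20921168, chr8:71671708-71672007 and chr10:109009062-109009361.
Syn1: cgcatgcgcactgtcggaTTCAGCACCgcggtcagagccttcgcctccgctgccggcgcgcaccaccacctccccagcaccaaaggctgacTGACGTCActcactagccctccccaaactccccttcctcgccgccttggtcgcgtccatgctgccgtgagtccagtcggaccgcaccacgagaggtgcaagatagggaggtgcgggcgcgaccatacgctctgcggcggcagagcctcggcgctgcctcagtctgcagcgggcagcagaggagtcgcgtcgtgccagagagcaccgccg
Unc13a: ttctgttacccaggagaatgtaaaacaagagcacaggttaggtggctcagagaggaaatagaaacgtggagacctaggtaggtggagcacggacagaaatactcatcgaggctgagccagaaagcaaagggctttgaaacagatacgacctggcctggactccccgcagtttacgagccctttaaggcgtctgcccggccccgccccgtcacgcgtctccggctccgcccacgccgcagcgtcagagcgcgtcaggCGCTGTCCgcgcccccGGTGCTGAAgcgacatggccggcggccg
Syt1: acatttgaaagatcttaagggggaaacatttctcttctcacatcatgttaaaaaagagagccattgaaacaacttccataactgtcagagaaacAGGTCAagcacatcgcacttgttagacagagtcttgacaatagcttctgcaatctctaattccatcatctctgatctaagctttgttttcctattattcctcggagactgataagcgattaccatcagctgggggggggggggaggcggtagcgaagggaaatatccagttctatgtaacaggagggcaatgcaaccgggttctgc

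Each motif was searched on both strands with exact letters, and none overlaps another in these windows. The RE1 left part was in Syn1 and Unc13a, 2 of the 27 members matched (7.41%), against 0.433% of all 27025 genes in the table. GGACAGCG was in Unc13a alone among the members (3.70%, against 1.48% of genes), and TGACGTCA in Syn1 alone (3.70%, against 2.03%). AGGTCA was in windows of Erc2, Syngr1, Syt1 and Syt2, 4 of 27 members (14.8%), against 18.1% of genes. The TATA sequence TATAAA was in Rab3b alone (3.70%, against 15.7%). A gene with several start windows was counted where any of them held the letters. A match is a description of these letters and not a bound site.

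Levels were compared between members only per length, as the median over 7 libraries of CPM per kilobase of GENCODE M21 exons. Syt11 was the highest at 68.7 CPM per kilobase, followed by Cplx1 (32.4), Rph3a (31.3), Vamp2 (30.3) and Rab3a (28.3). Sv2a (26.3), Snap25 (20.9), Syt1 (14.6) and Syp (14.0) came next. Syn3 (0.647), Unc13a (0.279), Bsn (0.256) and Sv2c (0.0840) were at the foot of the order. Of the 33 neighbouring pairs in this order 31 overlapped in their range over libraries, so most neighbours cannot be ranked. Only Syn3 above Unc13a and Bsn above Sv2c did not overlap. Lengths count every annotated exon, which lowers the per-length value of genes with many isoforms.

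**Figure D2:**
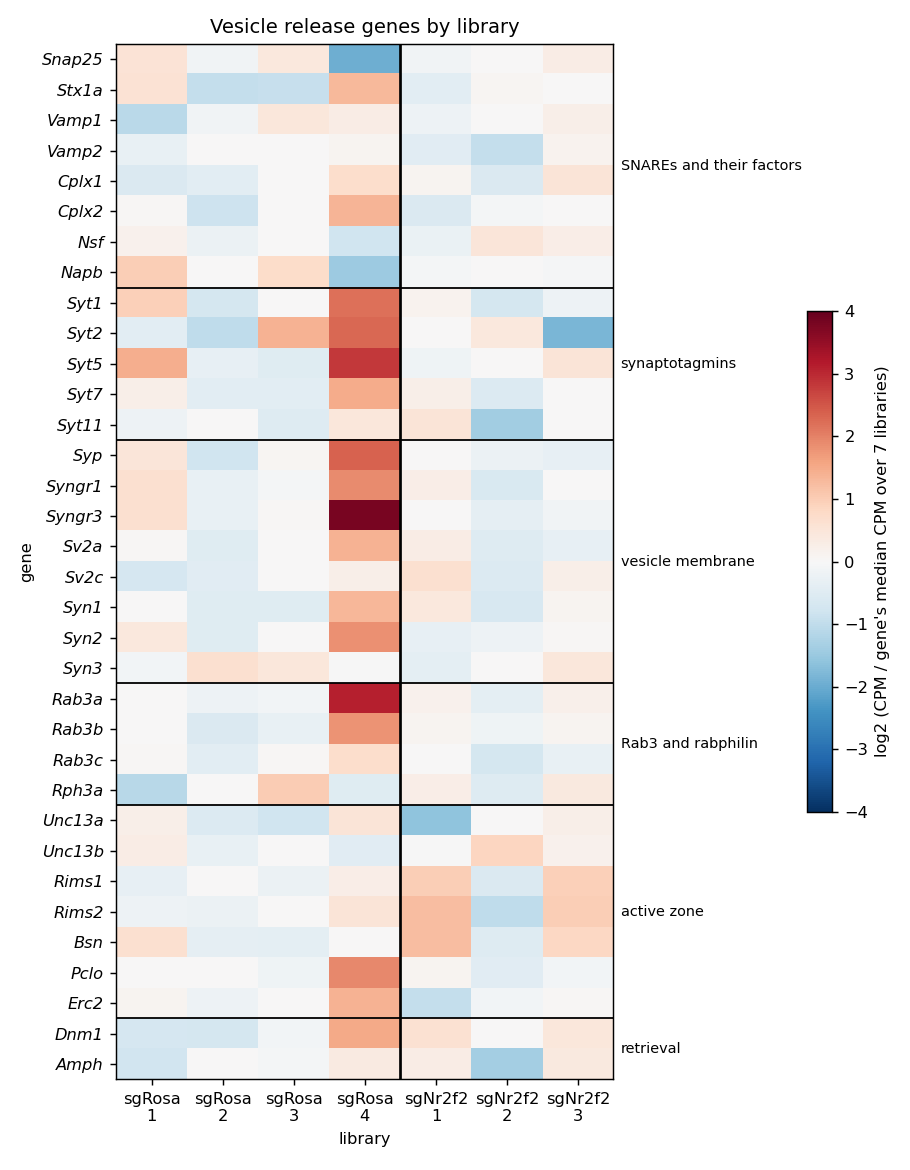
The heat map gives, for each of the 34 genes (rows, ordered by role) and each library (columns), the log2 of its CPM relative to the gene's median over the 7 libraries. The sgRosa replicate 4 column holds the highest value of 20 genes, most vesicle membrane genes and synaptotagmins among them, and the lowest of Snap25, Napb, Nsf and Unc13b.

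No release gene differed between the groups past the threshold of 0.05. Adjusted p-values of the 34 members ran from 0.868 to 0.997 in edgeR's quasi-likelihood test, and over all 14412 genes tested 0% were called. At an unadjusted p under 0.05 stood 1 member, Syngr3, which is 2.94% of the members against 5.00% of all genes (314 higher, 407 lower). Of the 34, 22 lay on the lower side in sgNr2f2 (64.7%, against 56.2% of all genes), with a median log2 fold change of -0.35, against -0.11 over all genes. No member had groups that did not overlap, against 8.31% of all genes. DESeq2 called 7 genes in all (0.0293%), and none of the 32 members with an adjusted p in that fit. It gave no adjusted p for Syngr3 and Rab3a. Standard errors of the members' log2 fold changes ran from 0.39 to 0.98, with a median of 0.54.

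Without sgRosa replicate 4, 16 of the 34 members were on the lower side (47.1%, against 52.5% of all genes) and the median log2 fold change was 0.02, against -0.03 over all genes. Dnm1 and Napb then had groups that did not overlap and an unadjusted p under 0.05. These are 5.88% of the members, against 18.1% of all genes without overlap and 11.3% at that p. None of the members passed the adjusted threshold in either tool, while DESeq2 called 2.28% of all genes without this library. With all 7 libraries and library sizes scaled to the pan-neuronal counts, 14 of 34 members were lower, against 34.7% of all genes. The median was then 0.18, against 0.21 over all genes. Without sgRosa replicate 4, the same scaling gave medians of -0.023 for the members and -0.078 over all genes.

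The sgRosa replicate 4 library separated the members from each other as well as from the other libraries. Of the 34, 20 were highest there (58.8%, against 32.7% of all genes). Beside the mean of the other sgRosa libraries, 18 members were over 2-fold higher there (52.9%, against 26.6% of all genes). Only 2 members, Snap25 and Napb, were over 2-fold lower (5.88%, against 35.2% of all genes), and 14 were within 2-fold. For 8 members (23.5%, against 14.1% of all genes) its gap above the next sgRosa library passed Dixon's critical value for 4 samples. By role, the summed share in this library was 4.68 times that of the others for vesicle membrane genes, 3.14 times for the Rab3 genes and 2.68 times for synaptotagmins. It was 2.65 times for retrieval genes, 2.06 times for active zone genes and 1.14 times for SNARE assembly genes. These are shares of raw totals, while the fold counts above are in CPM after TMM scaling. The sums of several roles join genes that went opposite ways in CPM. Rab3a was 9.20 times and Rph3a 0.612 times the mean of the other sgRosa libraries. Among vesicle membrane genes, Syngr3 was 12.2 times and Syn3 0.771 times that mean. Among active zone genes, Pclo was 3.94 times and Unc13b 0.720 times that mean. The SNARE assembly genes also went both ways. The ratios were 2.99 for Cplx2, 2.88 for Stx1a, 2.03 for Cplx1, 1.33 for Vamp1 and 1.16 for Vamp2. They were 0.582 for Nsf, 0.232 for Napb and 0.210 for Snap25.

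SNARE assembly genes lay on both sides. Of the 8, 4 were lower and 4 higher in sgNr2f2, with a median log2 fold change of -0.14. Snap25 (chr2:136713439-136782428), the plasma membrane SNARE that gives the complex a pair of its helices, had 205, 129, 192 and 36.9 CPM in sgRosa and 128, 142 and 176 CPM in sgNr2f2. The sgNr2f2 libraries lay within the range of sgRosa, and sgRosa replicate 4, rich in other neuronal transcripts, was 4.75-fold below the mean of the other sgRosa libraries. The group means were 141 ± 76.9 (SD, n = 4) and 148 ± 24.8 CPM (SD, n = 3), with a log2 fold change of 0.08 (SE 0.57), or -0.24 (SE 0.30) without that library. As a share of all counts of the 34 genes, Snap25 took 10.9, 8.45, 10.2 and 0.886% in sgRosa and 6.24, 11.1 and 8.97% in sgNr2f2.

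Napb (chr2:148693985-148732425), a SNAP adaptor that brings NSF to spent SNARE complexes, was the other member over 2-fold lower in sgRosa replicate 4 than in the other sgRosa libraries. It had 21.02, 10.7, 17.5 and 3.81 CPM in sgRosa and 9.92, 10.5 and 10.2 CPM in sgNr2f2. The 3 sgNr2f2 libraries were close to each other and just below sgRosa replicate 2. The log2 fold change was -0.38 (SE 0.54) with all libraries and -0.69 (SE 0.30) without sgRosa replicate 4, where edgeR's unadjusted p was 0.0475 and its adjusted p 0.439. The remaining sgRosa libraries then averaged 16.4 ± 5.24 CPM (SD, n = 3), against 10.2 ± 0.305 in sgNr2f2 (SD, n = 3).

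Nsf, the ATPase that takes SNARE complexes apart, had 97.5, 72.9, 85.7 and 49.7 CPM in sgRosa and 70.9, 119.9 and 103 CPM in sgNr2f2. Vamp2 (chr11:69088528-69092381), the main vesicle SNARE of forebrain synapses, had 94.6, 115, 115 and 125 CPM and 83.5, 60.2 and 126 CPM. Both overlapped between groups, with log2 fold changes of 0.36 (SE 0.42) and -0.32 (SE 0.42), which were 0.20 (SE 0.28) and -0.27 (SE 0.32) without sgRosa replicate 4. Vamp1, its close relative, had 12.1, 23.1, 34.6 and 31.0 CPM and 22.0, 25.5 and 30.3 CPM, with a log2 fold change of 0.04 (SE 0.43), or 0.16 (SE 0.36) without that library. Of the counts of Vamp1 and Vamp2 together, Vamp1 took 11.3, 16.7, 23.1 and 19.8% in sgRosa and 20.8, 29.8 and 19.4% in sgNr2f2. These shares overlapped, with sgNr2f2 replicate 2 the highest and sgRosa replicate 1 the lowest.

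The syntaxin Stx1a, the other plasma membrane SNARE, had 13.1, 4.54, 4.62 and 21.4 CPM in sgRosa and 6.53, 9.18 and 8.77 CPM in sgNr2f2. The complexins bind the zipped SNARE complex and set when it may fuse. Cplx1 had 47.9, 53.0, 70.9 and 116 CPM and 77.0, 47.4 and 101 CPM. Cplx2 had 61.6, 33.7, 60.3 and 155 CPM and 40.5, 57.2 and 60.9 CPM. All 3 genes were highest in sgRosa replicate 4, and in each the groups overlapped. Their log2 fold changes were -0.41 (SE 0.59) for Stx1a, 0.06 (SE 0.47) for Cplx1 and -0.55 (SE 0.54) for Cplx2. Without that library they were 0.13 (SE 0.45), 0.39 (SE 0.32) and 0.027 (SE 0.31), so that Stx1a and Cplx2 changed sign. Cplx1 took 43.7, 61.1, 54.1 and 42.9% of the counts of both complexins in sgRosa and 65.5, 45.3 and 62.3% in sgNr2f2.

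All 5 synaptotagmins lay on the lower side in sgNr2f2, with a median log2 fold change of -1.23, and none passed the test. Without sgRosa replicate 4, 3 of the 5 were lower and the median was -0.35. Syt1 (chr10:108497650-109010980), the calcium sensor of fast release in the forebrain, had 233, 73.8, 121 and 557 CPM in sgRosa and 134, 74.2 and 106 CPM in sgNr2f2. The sgRosa replicates 4 and 1 were the highest libraries, and the other sgRosa libraries overlapped sgNr2f2. The means were 246 ± 218 (SD, n = 4) and 105 ± 30.1 CPM (SD, n = 3). The log2 fold change was -1.23 (SE 0.69), and -0.45 (SE 0.43) without sgRosa replicate 4.

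Syt2, the fast sensor best known from hindbrain and inhibitory terminals, had 7.96, 5.30, 28.1 and 53.1 CPM in sgRosa and 10.8, 14.3 and 3.02 CPM in sgNr2f2. It took 3.31, 6.70, 18.8 and 8.70% of the counts of both genes in sgRosa and 7.42, 16.2 and 2.77% in sgNr2f2. Syt5, another vesicle synaptotagmin, had 41.3, 11.95, 10.9 and 108 CPM and 13.5, 15.1 and 21.8 CPM. Both had their high value in sgRosa replicate 4, with log2 fold changes of -1.32 (SE 0.82) and -1.35 (SE 0.77) that were -0.55 (SE 0.69) and -0.35 (SE 0.50) without it.

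Syt7, the high-affinity sensor of asynchronous release, had 24.9, 15.9, 15.7 and 59.3 CPM in sgRosa and 25.2, 14.6 and 21.2 CPM in sgNr2f2. Syt11, which does not bind calcium and acts in membrane traffic, had 312, 362, 250.3 and 488 CPM and 509, 138 and 358 CPM. Syt7, like Syt1, Syt2 and Syt5, was highest in sgRosa replicate 4, while Syt11 had both its highest and its lowest library in sgNr2f2. Their log2 fold changes were -0.51 (SE 0.54) for Syt7 and -0.08 (SE 0.54) for Syt11. Both changed sign without sgRosa replicate 4, to 0.11 (SE 0.30) and 0.12 (SE 0.46).

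Of the 8 vesicle membrane genes 7 lay on the lower side, with a median log2 fold change of -0.72, and none passed the test. Without sgRosa replicate 4, 6 were lower and the median was -0.19. Syngr3 (chr17:24685092-24689949), a synaptogyrin, which is a protein that spans the vesicle membrane and resembles synaptophysin, had 40.4, 20.98, 27.0 and 358 CPM in sgRosa and 26.0, 20.4 and 23.4 CPM in sgNr2f2. A single library, sgRosa replicate 4, was 12.2-fold above the mean of the other sgRosa libraries, and the other 6 libraries lay between 20.4 and 40.4 CPM. The log2 fold change was -2.26 (SE 0.98, 95% interval -4.44 to -0.08), with an unadjusted p of 0.0436 and an adjusted p of 0.868 in edgeR. Without that library it was -0.34 (SE 0.29).

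Syp (chrX:7638580-7653256), synaptophysin, an abundant vesicle protein that binds VAMP2, had 102, 41.9, 77.0 and 374 CPM in sgRosa and 73.1, 61.6 and 58.3 CPM in sgNr2f2. Again sgRosa replicate 4 was the highest library and the others overlapped. Its log2 fold change was -1.21 (SE 0.71), and -0.20 (SE 0.34) without it. Syngr1, the relative of Syngr3, had 39.0, 20.7, 23.8 and 92.7 CPM and 30.0, 16.6 and 25.2 CPM, with a log2 fold change of -0.88 (SE 0.57), or -0.22 (SE 0.33) without that library. Of the counts of both synaptogyrins it took 46.9 to 49.6% in the first 3 sgRosa libraries, 20.6% in sgRosa replicate 4, and 44.8 to 53.6% in sgNr2f2.

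Sv2a, a vesicle glycoprotein and the target of the antiseizure drug levetiracetam, had 126, 87.1, 122 and 320.0 CPM in sgRosa and 149, 85.3 and 96.9 CPM in sgNr2f2. Its relative Sv2c was at the foot of the members, with 7 to 21 counts per library and 0.515 to 1.27 CPM. Neither passed the test, with log2 fold changes of -0.57 (SE 0.55) and 0.39 (SE 0.73), which were -0.016 (SE 0.31) and 0.54 (SE 0.72) without sgRosa replicate 4.

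The synapsins coat vesicles and hold the reserve pool. Syn1 (chrX:20860511-20920918) had 21.7, 15.4, 15.6 and 54.4 CPM in sgRosa and 29.3, 13.9 and 23.6 CPM in sgNr2f2. Syn2 had 38.4, 20.5, 28.8 and 101 CPM and 22.7, 25.0 and 29.9 CPM. Syn3 had 7.30, 12.5, 10.9 and 7.89 CPM and 6.11, 7.95 and 10.9 CPM. Syn1 and Syn2 shared the high value in sgRosa replicate 4 and Syn3 did not, so Syn3 took 12.7% of the counts of Syn1 and Syn3 there, against 25.2 to 44.8% in the other sgRosa libraries and 17.3 to 36.4% in sgNr2f2. Log2 fold changes were -0.26 (SE 0.53) for Syn1, -0.87 (SE 0.56) for Syn2 and -0.22 (SE 0.42) for Syn3. When sgRosa replicate 4 was left out, that of Syn1 changed sign to 0.34 (SE 0.31), that of Syn2 was -0.18 (SE 0.28) and that of Syn3 -0.30 (SE 0.34).

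Rab3 proteins are small GTPases that ride on vesicles and bind RIM at the active zone. Rab3a (chr8:70754703-70758608), the main one of brain synapses, had 63.0, 55.3, 58.6 and 543 CPM in sgRosa and 71.3, 47.7 and 73.2 CPM in sgNr2f2. Replicates 1 to 3 of sgRosa lay inside the sgNr2f2 range, and replicate 4 was 9.20-fold above their mean. Rab3a had a log2 fold change of -1.49 (SE 0.87) with all libraries and 0.12 (SE 0.26) without sgRosa replicate 4, a change of sign. Rab3a took 13.0% of the members' counts in that library and 3.12 to 3.74% in the other 6.

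Rab3b, which was low at 47 to 99 counts per library, had 3.89, 2.60, 3.19 and 13.5 CPM in sgRosa and 4.23, 3.415 and 4.23 CPM in sgNr2f2. Rab3c had 55.0, 40.0, 54.3 and 86.2 CPM and 53.1, 32.7 and 43.2 CPM. The high value of sgRosa replicate 4 was thus larger for Rab3a than for Rab3c, which took 13.7% of the counts of both there, against 41.9 to 48.1% in the other sgRosa libraries and 37.1 to 42.7% in sgNr2f2. Rph3a, rabphilin, an effector of Rab3, had 67.9, 145, 292 and 103 CPM and 176, 102 and 192 CPM. It did not follow the Rab3 genes: sgRosa replicate 3 was its highest library and sgRosa replicate 1 its lowest. Log2 fold changes were -0.53 (SE 0.63) for Rab3b, -0.45 (SE 0.42) for Rab3c and 0.05 (SE 0.56) for Rph3a. With sgRosa replicate 4 left out they were 0.29 (SE 0.40), -0.21 (SE 0.27) and -0.10 (SE 0.50), so that Rab3b and Rph3a changed sign.

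**Figure D3:**
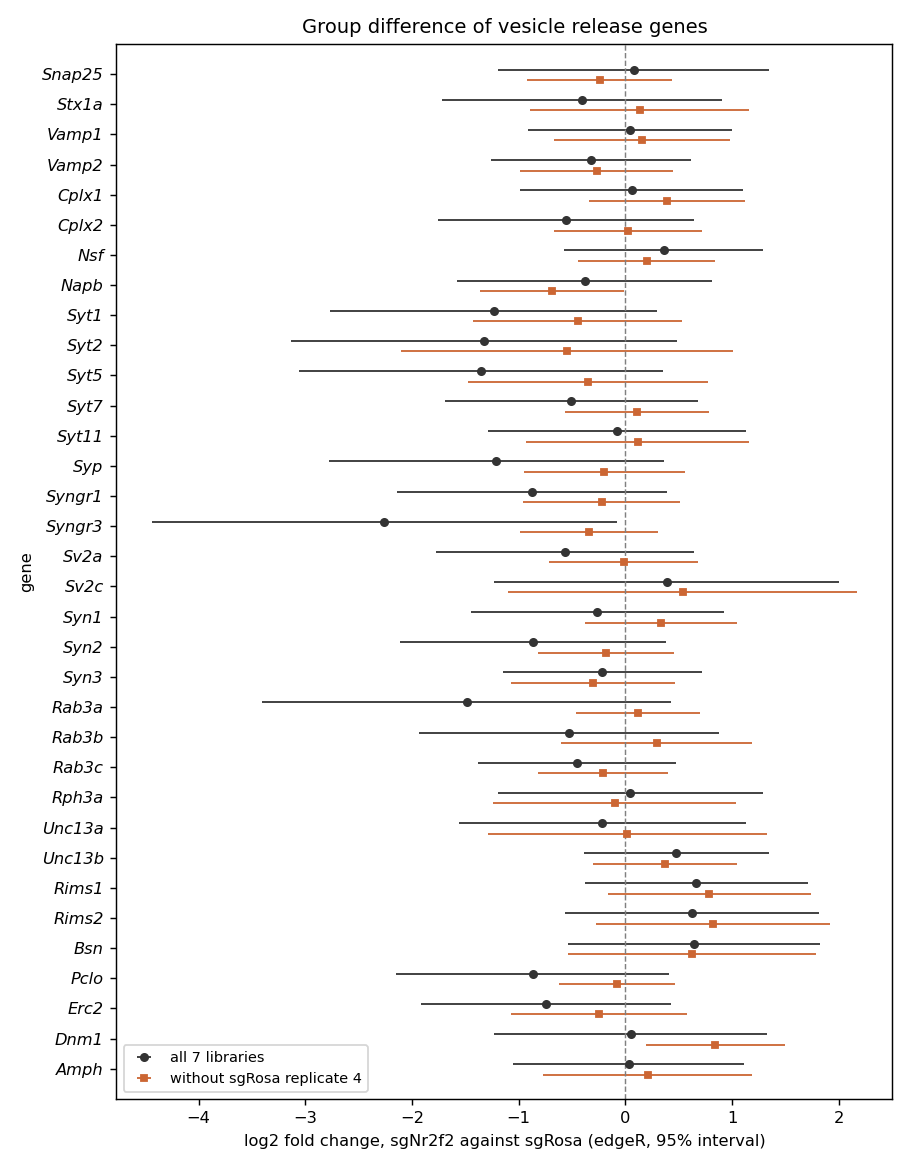
Points give the log2 fold change of each member, sgNr2f2 against sgRosa, with a 95% interval derived from edgeR's F statistic. Dark circles are all 7 libraries and orange squares are without sgRosa replicate 4. With all libraries 1 interval, that of Syngr3, does not reach 0, and without that library those of Napb and Dnm1 do not.

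The active zone genes lay on both sides, 3 of 7 lower, with a median log2 fold change of 0.48 that was 0.37 without sgRosa replicate 4. RIM proteins tether vesicles and calcium channels. Rims2 had 51.9, 51.3, 60.1 and 86.3 CPM in sgRosa and 141, 29.7 and 118 CPM in sgNr2f2, and Rims1 had 5.76, 7.30, 6.25 and 8.85 CPM and 14.3, 4.87 and 14.2 CPM. In both genes sgNr2f2 replicates 1 and 3 were the highest libraries and sgNr2f2 replicate 2 the lowest. The log2 fold changes of 0.62 (SE 0.54) and 0.66 (SE 0.47) did not pass the test, and were 0.82 (SE 0.49) and 0.79 (SE 0.42) without sgRosa replicate 4. Rims2 held a steady part of the counts of both, 89.7 ± 1.48% in sgRosa (SD, n = 4) and 88.6 ± 2.49% in sgNr2f2 (SD, n = 3).

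The giant scaffold Bsn, bassoon, had the same order within sgNr2f2, with 6.41, 3.19, 3.12 and 4.08 CPM in sgRosa and 9.56, 2.86 and 7.31 CPM in sgNr2f2. Its partner Pclo, piccolo, had 22.1, 22.0, 19.3 and 83.3 CPM and 23.8, 15.9 and 20.4 CPM. Pclo was high in sgRosa replicate 4 and Bsn was not, and Pclo took 95.3% of their joint counts there. In the other sgRosa libraries that share was 77.5 to 87.3% and in sgNr2f2 71.4 to 84.8%. The log2 fold changes were 0.64 (SE 0.53) for Bsn and -0.87 (SE 0.58) for Pclo, and 0.62 (SE 0.51) and -0.078 (SE 0.24) without that library.

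Munc13 proteins prime vesicles by opening syntaxin. Unc13b had 27.9, 18.5, 22.8 and 16.6 CPM in sgRosa and 22.6, 41.4 and 25.7 CPM in sgNr2f2, with a log2 fold change of 0.48 (SE 0.39), or 0.37 (SE 0.30) without sgRosa replicate 4. Unc13a (chr8:71624125-71671774), the main form of forebrain excitatory synapses, had 4.17, 2.43, 2.04 and 5.04 CPM and 1.15, 3.53 and 4.11 CPM, from 19 to 89 counts, with a log2 fold change of -0.21 (SE 0.61), or 0.02 (SE 0.58) without that library. Unc13b was the more counted of the pair in every library, with 76.7 to 91.8% of their counts in sgRosa and 86.2 to 95.2% in sgNr2f2. These shares are not corrected for length. Erc2, an active zone scaffold that binds RIM, had 7.35, 5.89, 6.79 and 17.8 CPM and 3.51, 6.27 and 7.07 CPM, with a log2 fold change of -0.74 (SE 0.53), or -0.25 (SE 0.37) without sgRosa replicate 4.

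Both retrieval genes lay slightly on the higher side. Dnm1 (chr2:32308471-32353349), the dynamin that pinches off endocytic vesicles in neurons, had 9.41, 9.08, 13.9 and 42.9 CPM in sgRosa and 22.9, 14.9 and 20.4 CPM in sgNr2f2. The 3 sgNr2f2 libraries lay above sgRosa replicates 1 to 3 and below sgRosa replicate 4. The log2 fold change was 0.05 (SE 0.58) with all libraries. Without sgRosa replicate 4 it was 0.84 (SE 0.29, 95% interval 0.19 to 1.49), with an unadjusted p of 0.0164 and an adjusted p of 0.328 in edgeR. Amph, amphiphysin, which brings dynamin to the neck of the forming vesicle, had 16.4, 28.0, 26.6 and 36.1 CPM and 34.1, 10.97 and 37.0 CPM, with a log2 fold change of 0.03 (SE 0.49), or 0.21 (SE 0.43) without sgRosa replicate 4.

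The sgNr2f2 libraries also differed among themselves. Replicate 2 was the lowest of all 7 libraries for 15 of the 34 members (44.1%, against 13.2% of all genes), among them Syt11, Cplx1, Vamp2, Rab3a, Sv2a, Syn1 and both RIM genes. Its oligodendrocyte share was the lowest of the sgNr2f2 libraries, 17.9%, and its endothelial marker share was 0.528%, against 0.191 and 0.202% in the other sgNr2f2 libraries. The part that these cell types had in the order of the libraries was not tested.

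**Figure D4:**
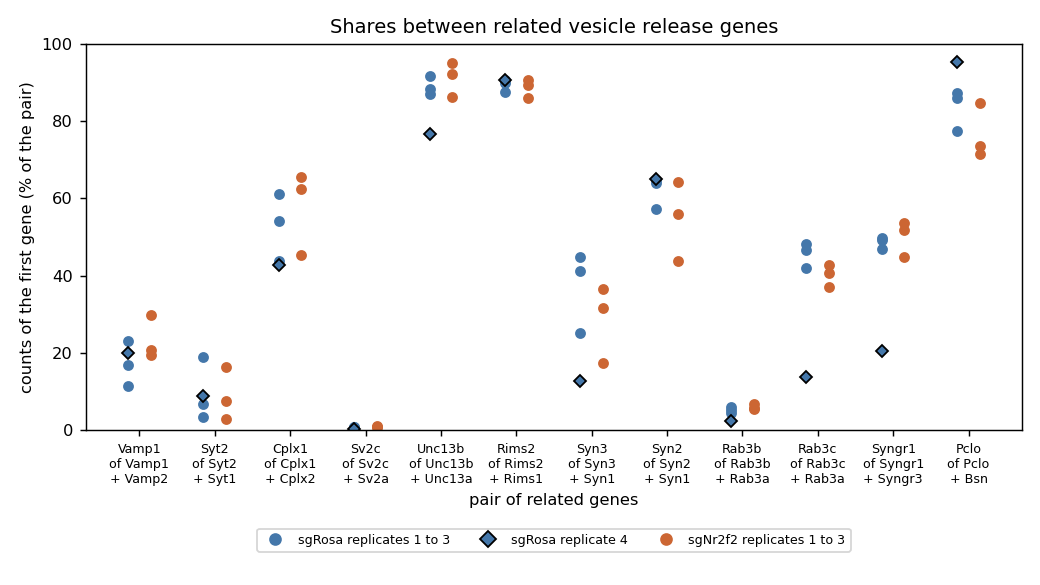
Points give, for each of 12 pairs of related members, the percentage of the pair's counts taken by the first gene in each sgRosa (blue) and sgNr2f2 (orange) library, on an axis from 0, with sgRosa replicate 4 as a diamond. The groups overlap in all 12 pairs.

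A share within a pair of related members does not depend on how libraries are scaled. In all 12 pairs compared, the shares of the groups overlapped. In 9 of the 12 the share of sgRosa replicate 4 lay outside the range of the other 6 libraries. Over all genes, this library was the highest for 32.7% and the lowest for 35.8% in CPM. Those are values of single genes and not shares, and pairs drawn from all genes were not compared. Some gaps were small, as for Cplx1 with Cplx2 (42.9%, against 43.7% in sgRosa replicate 1). That of Sv2c with Sv2a rests on 7 Sv2c counts in sgRosa replicate 4. Some pairs share a gene and are not independent. Rab3a and Rab3c, for example, differed unequally there from the other libraries. The 3 pairs in which the share of sgRosa replicate 4 lay inside were Vamp1 with Vamp2, Syt2 with Syt1 and Rims2 with Rims1.

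Other genes of the pathway also gave no call in edgeR with all 7 libraries. Of 57 further genes of vesicle release, 56 passed the filter on low counts (Doc2a did not) and none was called by edgeR in either direction. Of the 56, 3 had an unadjusted edgeR p under 0.05, where 5.00% of all genes did. On the lower side lay 39, with a median log2 fold change of -0.29, against 56.2% and -0.11 over all genes. Without sgRosa replicate 4, 25 of the 56 did, with a median of 0.06, against 52.5% and -0.03 over all genes. Syt10, a synaptotagmin known for growth factor secretion from mouse olfactory bulb neurons, had 4.54, 4.16, 2.45 and 4.90 CPM in sgRosa and 0.0605, 1.18 and 0.302 CPM in sgNr2f2. The groups did not overlap, and the log2 fold change was -2.94 (SE 0.87, unadjusted p = 0.00658). Ppfia3, a liprin of the active zone, had 9.50, 17.6, 22.3 and 29.7 CPM and 68.7, 15.6 and 123 CPM, with a log2 fold change of 1.80 (SE 0.64, unadjusted p = 0.0177). Its low sgNr2f2 library was replicate 2, as for the RIM genes. Without sgRosa replicate 4, DESeq2 called both, with adjusted p-values of 0.0405 for Syt10 and 0.0290 for Ppfia3. In that fit it called 2.28% of all genes. In edgeR without that library, with log2 fold changes of -2.83 and 2.06, neither was called.

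Nrxn3 and Syt4 were also among the genes of smallest p on the lower side, with unadjusted edgeR p-values of 0.0560 and 0.0646. Nrxn3, a presynaptic adhesion protein, had 109, 35.6, 82.6 and 217 CPM in sgRosa and 57.6, 44.1 and 34.9 CPM in sgNr2f2. Like Syt1, it was highest in sgRosa replicates 4 and 1, with a log2 fold change of -1.29. Syt4, a synaptotagmin of dense-core vesicles, had 112, 46.4, 68.3 and 107 CPM and 47.5, 49.0 and 34.6 CPM, with a log2 fold change of -0.93. On the higher side, Cask, a presynaptic scaffold, had 30.3, 30.5, 24.5 and 5.31 CPM in sgRosa and 37.7, 38.0 and 37.1 CPM in sgNr2f2. Its groups did not overlap, as in 3 of these 57 genes and in 8.31% of all genes. The log2 fold change was 0.72 (edgeR unadjusted p = 0.205). Doc2b, a calcium sensor of spontaneous release, had 3.93, 3.08, 3.87 and 8.03 CPM and 4.60, 17.4 and 10.5 CPM. Its log2 fold change was 1.20 (edgeR unadjusted p = 0.0531). For Syt9, a fast calcium sensor, the log2 fold change was 0.80 (edgeR unadjusted p = 0.202). In the fit that left out sgRosa replicate 4, these log2 fold changes kept their signs, at -0.74 for Nrxn3, -0.79 for Syt4, 0.40 for Cask, 1.57 for Doc2b and 0.56 for Syt9.

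Counting limits some of these values. The strand setting of the counting is not stated in the sources used here, and in GENCODE M21 the exons of 11 members overlap another gene's. The largest shares of exon length were 16.8% for Syp, with Gm14703 on the opposite strand, and 14.1% for Syn3, with Timp3 on the opposite strand. Reads from such genes cannot be told apart without strand.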

How the data were processed

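Amygdala tissue was digested with papain, neurons were enriched with a magnetic isolation kit, and 5 ng of RNA went into each library, per the labels' protocols. The deposited values were raw counts per gene symbol for 7 libraries, and the single files equalled the table of the series. The submitters' processing notes name edgeR 3.42.4, featureCounts 2.0.1, STAR 2.7.5c, MultiQC 1.11, FastQC 0.11.9 and fastp 0.23.2, and the build mm10. How strand, annotation and reads with several positions were handled is not given in the sources used here.

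From these counts, edgeR 4.0.16 (R 4.3.3) fitted a quasi-likelihood model with group as the only term, after TMM scaling and its low-count filter. P-values were adjusted by Benjamini-Hochberg over 14412 genes, with a threshold of 0.05. The fit was tested on simulated data. Alternatives were DESeq2 1.42.0, other scalings, no filter, a replicate block and each library left out. Leaving out sgRosa replicate 4 in DESeq2 and in the pan-neuronal scaling was chosen after seeing the data. The labels do not say what a replicate is, so p-values measure only the spread between these libraries, which may be technical. Reads without molecular identifiers are not independent molecules. Coordinates and promoters are from RefSeq's GRCm38.p6 (mm10), and exon lengths and overlaps from GENCODE M21.

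All 34 members are named, with the 4 further release genes of smallest p on each side and the targeted gene. A gene that this rule takes is not reported here. The members and lists were chosen with earlier results of these data known.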

Additional observations from a re-analysis of the deposited data

Results flagged for a closer look

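In 8 of the 34 release genes, sgRosa replicate 4 lay far above the other sgRosa libraries. The gap to the next library, as a part of the whole range of the 4 sgRosa libraries, was 0.984 for Rab3a, 0.955 for Pclo, 0.942 for Syngr3, 0.881 for Rab3b, 0.878 for Erc2, 0.857 for Dnm1, 0.839 for Syn1 and 0.833 for Sv2a. Each gap is above Dixon's critical value for 4 samples at the 95% level. Chance passes it in about 1 in 20 groups of normal values, at either end and for any library. That is not the rate for 1 library already singled out in these data, and the 8 genes share that library. These are 23.5% of the members, against 14.1% of all genes with the same library as far above the others. The summed share of the pan-neuronal genes had the same gap in the same library, 0.896. That library also had the fewest counts, 6266897, the smallest oligodendrocyte share, 2.69%, and the largest erythroid share, 3.70%. The part these had in the values of the release genes was not tested.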

How the results depend on the processing

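The count of members called stayed at 0 in all 15 alternatives run, where DESeq2 with all libraries gave no adjusted p for Syngr3 and Rab3a. The direction of 19 of the 34 members held in all of them, and 15 changed sign in at least 1. Over all genes, the median log2 fold change was -0.11 with TMM, -0.33 with library size alone and 0.21 with scaling to pan-neuronal counts. With pan-neuronal scaling, 14 members were lower, with a median of 0.18, and the signs changed to 0.29 for Stx1a, 0.19 for Cplx2, 0.17 for Syt7, 0.23 for Syt11, 0.094 for Sv2a, 0.39 for Syn1, 0.31 for Rab3b and 0.27 for Unc13a. With library size alone they changed to -0.16 for Snap25, -0.12 for Vamp1, -0.22 for Cplx1, -0.078 for Rph3a, -0.23 for Dnm1 and -0.24 for Amph. With DESeq2's size factors Dnm1 stood at -0.0048. No label says that a number marks a shared litter, batch or day, so the numbers were not taken as pairs. Same-numbered libraries deviated from their group means with correlations of -0.20, -0.26 and 0.09. Those of different numbers ran from -0.14 to 0.25, and so few libraries cannot decide whether numbers mark pairs. No sgNr2f2 library has the number 4, so a block on that number takes sgRosa replicate 4 out of the group comparison. With the replicate number as a block, 17 members were lower with a median of 0.01, and the values that changed sign were -0.22 for Snap25, 0.32 for Stx1a, 0.056 for Cplx2, 0.11 for Syt7, 0.29 for Syn1, 0.095 for Rab3a and 0.31 for Rab3b. DESeq2 called 7 genes over all genes, and 357 (2.28%) without sgRosa replicate 4, of which 2 were in the list of other release genes. In that fit signs changed to -0.21 for Snap25, 0.17 for Stx1a, 0.054 for Cplx2, 0.13 for Syt7, 0.14 for Syt11, 0.0073 for Sv2a, 0.36 for Syn1, 0.14 for Rab3a, 0.32 for Rab3b, -0.085 for Rph3a and 0.053 for Unc13a. Without that library and with pan-neuronal scaling they changed to -0.26 for Snap25, 0.11 for Stx1a, 0.035 for Cplx2, 0.019 for Syt7, 0.23 for Syn1, 0.039 for Rab3a, 0.24 for Rab3b, -0.14 for Rph3a and 0.0026 for Unc13a. The causes were not tested.

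Leaving out each library in turn gave 16 to 27 members on the lower side and medians from -0.47 to 0.02. Signs changed within -0.24 to 0.31 for Snap25, -0.67 to 0.13 for Stx1a, -0.20 to 0.27 for Vamp1, -0.20 to 0.39 for Cplx1, -0.81 to 0.027 for Cplx2, -0.71 to 0.11 for Syt7, -0.52 to 0.30 for Syt11, -0.52 to 0.34 for Syn1, -1.79 to 0.12 for Rab3a, -0.78 to 0.29 for Rab3b, -0.20 to 0.61 for Rph3a, -0.52 to 0.16 for Unc13a, -0.18 to 0.84 for Dnm1 and -0.24 to 0.41 for Amph. The value without sgRosa replicate 4 was the lower end for Snap25 and the upper end for Stx1a, Cplx1, Cplx2, Syt7, Syn1, Rab3a, Rab3b and Dnm1. The spread between these libraries, with a median standard error of 0.54 on the log2 scale, limits what could be detected in the members.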
